A study of Homo sapiens with 4 samples.

Results

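The 10 genes described here, APOA1, APOA4, APOA5, APOC3, APOE, APOC1, APOC2, APOC4, APOB and MTTP, build, load and regulate the lipoproteins that hepatocytes secrete, and they lie at 4 loci. Their members in the data are H3K4me1 peaks: every distinct deposited peak (knockdown over control) that overlapped, by at least 1 bp, one of 4 gene spans extended by 20 kb on each side. The spans, on hg19 and given to the nearest 1 kb, ran on chromosome 11 from 116660000 to 116709000 (APOA5, APOA4, APOC3 and APOA1, called the APOA cluster below), on chromosome 19 from 45409000 to 45453000 (APOE, APOC1, APOC4 and APOC2, the APOE cluster), on chromosome 2 from 21224000 to 21267000 (APOB) and on chromosome 4 from 100485000 to 100545000 (MTTP). The rule used positions only and no measured value, although the members were chosen with earlier results of these data known. The rule found 30 member peaks among the 160601 distinct peaks of the list.

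The study asked how H3K4me1, the monomethylated form of lysine 4 of histone H3, differs between LSD2-depleted and control HepG2 cells. HepG2 is a human liver tumour line kept here in medium with 25 mM D-glucose and 10% serum, and the siRNAs were given at about 50% confluence. The 4 samples were H3K4me1 ChIP and input from LSD2-knockdown cells, and H3K4me1 ChIP and input from control cells (siRNA against GL3, a luciferase sequence), with 1 library each. The peak list sets the knockdown H3K4me1 library against the control H3K4me1 library, and its header names neither input. The names of both libraries in that header carry different dates, so condition and date cannot be told apart. With 1 library per condition no test between conditions was possible, and every interval below covers counting error only. The depth of the libraries is unknown, the extent of the knockdown was not analysed here, and the list gives positions without a height, fold or p-value. Regions with more reads in the control library were not analysed here. A stretch without a peak may therefore be unchanged, lower or too thinly covered.

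As background, H3K4me1 marks enhancers and the flanks of active promoters, and LSD2 (gene KDM1B) is a demethylase of this lysine. Hepatocytes assemble very low density lipoprotein around APOB, its structural protein, to which MTTP, the microsomal triglyceride transfer protein, adds lipid. APOA1 is the main protein of high density lipoprotein, APOA4 is carried on chylomicrons and high density lipoprotein, and APOE is a ligand of the LDL receptor family. APOC2 activates lipoprotein lipase, APOA5 promotes the clearance of triglyceride by that enzyme, and APOC3 and APOC1 slow the clearance of lipoproteins. APOC4 is a less studied member of the family.

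Both clusters and both single genes carried knockdown-over-control peaks, in different arrangements. A peak somewhere in a stretch this long was common in the list: 96.4 to 97.7% of autosomal windows as long as the extended spans held at least 1. MTTP had 9 member peaks, 8 of them inside its gene span. APOB had 8, with 3 inside the span, 3 below it and 2 above it. The APOE cluster had 8, with 4 inside the span, 3 below it and 1 above it. The APOA cluster had 5, with 1 inside the span and 4 below it. Across the 4 loci, 16 members lay inside a span, 11 below one and 3 above one. "Below" and "above" stand for lower and higher coordinates.

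**Figure D1:**
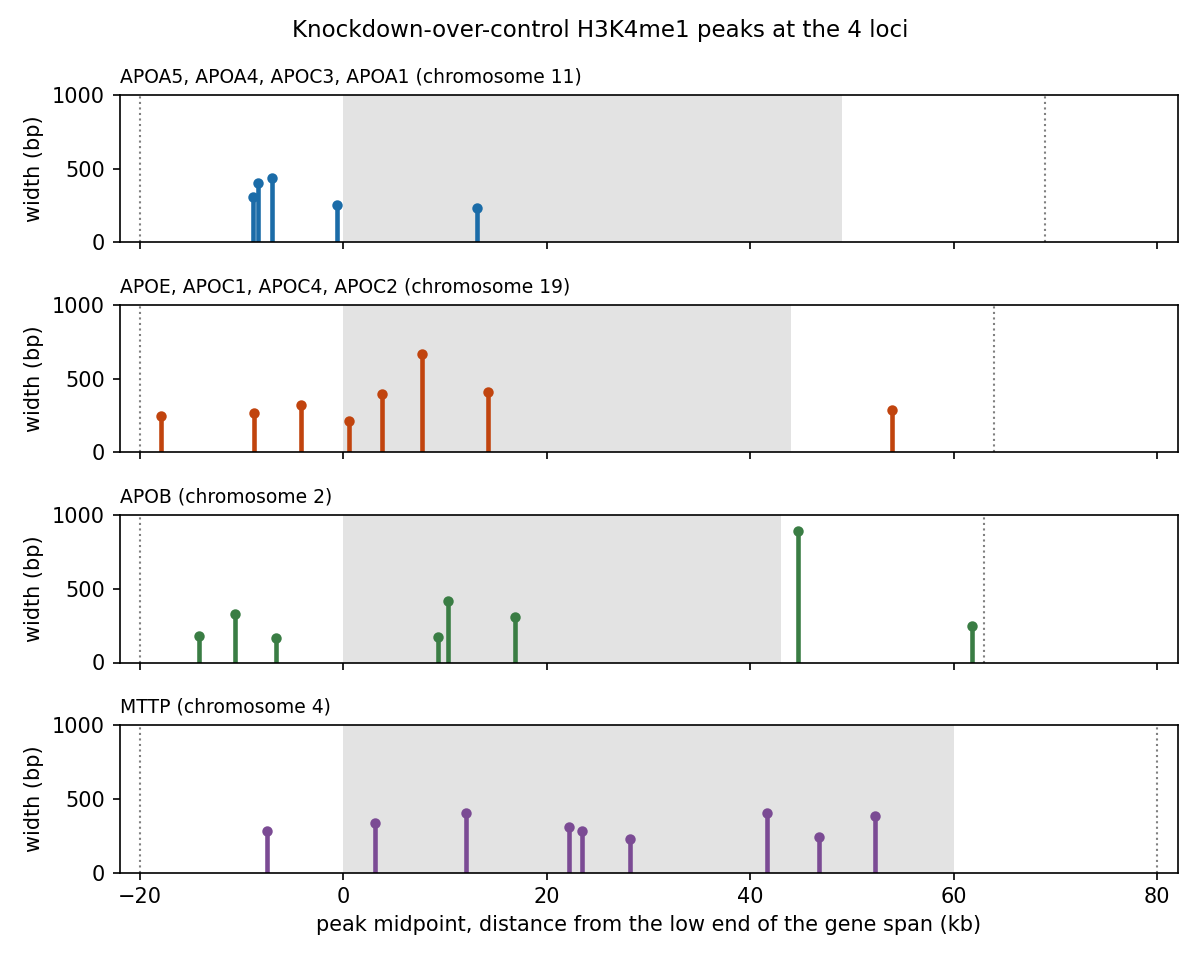
Position and width of the 30 member peaks at the 4 loci. The x axis is the distance of the peak midpoint from the low end of the gene span in kb. The y axis and the height of each line are the peak width in bp. Grey marks the span and dotted lines the 20 kb extensions. MTTP peaks are spread across the span, and the upper parts of the APOA, APOE and APOB spans are empty.

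No genome of the build of the peaks was used here, so the sequence under the peaks is not shown. The first APOE start and both MTTP starts listed by RefSeq are printed instead. These genes were taken because they are transcribed from the low end of their span, and the nearest peak to that end lay inside it (described below). The second MTTP start lies farther into the gene than the first, at higher coordinates, so it is not at the low end. Each printed stretch is the 250 bases before a start, 5′ to 3′, on the plus strand of GRCh38.p14, from RefSeq. Their coordinates are on that build and were not set against the peaks. Capitals mark TATAA, the GC box GGGCGG and the nuclear receptor motif AGGTCA, searched on both strands. Of the 10 genes, 7 matched the promoter table, and APOA1, APOC3 and APOB are named only.
APOE, chr19:44905546-44905795: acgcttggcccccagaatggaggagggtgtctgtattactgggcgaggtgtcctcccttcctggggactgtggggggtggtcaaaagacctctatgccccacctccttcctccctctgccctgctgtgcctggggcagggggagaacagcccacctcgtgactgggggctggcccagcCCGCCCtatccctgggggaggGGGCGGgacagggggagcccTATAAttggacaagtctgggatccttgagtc
MTTP, first start, chr4:99563880-99564129: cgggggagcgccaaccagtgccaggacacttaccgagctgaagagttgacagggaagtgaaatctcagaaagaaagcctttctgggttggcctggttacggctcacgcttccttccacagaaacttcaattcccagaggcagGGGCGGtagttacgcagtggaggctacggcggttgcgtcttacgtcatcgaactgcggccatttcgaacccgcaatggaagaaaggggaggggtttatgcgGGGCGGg
MTTP, second start, chr4:99574574-99574823: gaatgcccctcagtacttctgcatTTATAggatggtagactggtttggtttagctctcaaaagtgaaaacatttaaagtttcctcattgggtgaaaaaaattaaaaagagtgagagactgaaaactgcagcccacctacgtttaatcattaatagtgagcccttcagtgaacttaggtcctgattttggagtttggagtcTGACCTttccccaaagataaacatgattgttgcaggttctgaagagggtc
The APOE stretch held 1 TATAA, beginning 31 bases before the start, and 2 GC boxes, and 64.8% of its bases were G or C. The first MTTP stretch held 2 GC boxes and no TATAA, with 57.2% G or C. The second MTTP stretch had 40.0% G or C and no GC box. Its 1 AGGTCA began 50 bases before the start and its 1 TATAA match 226 bases before the start, both on the other strand. Over all 35116 listed promoters, the same 250 bases held TATAA in 18.9%, the GC box in 42.6% and AGGTCA in 12.1%, with a median of 58.0% G or C. These matches describe letters in the windows and not bound sites.

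The peaks of MTTP, the lipid loader of nascent APOB particles, were spread along the gene span. The lowest member lay below the span, from 100477340 to 100477618 (279 bp), 7.38 kb from its low end. MTTP is transcribed towards higher coordinates, and the first peak inside, from 100487921 to 100488257 (337 bp), lay 2.92 kb from the low end. The next peak lay from 100496889 to 100497293 (405 bp), 11.9 kb from the low end. The second listed start of MTTP lies farther along the gene than the first. Neither start was set against these peaks, so which peak lies nearest to a start is not stated. A close pair followed, the lower at 100507049 to 100507360 (312 bp) and the upper at 100508319 to 100508602 (284 bp), with 0.958 kb between its peaks. Single peaks lay from 100513106 to 100513334 (229 bp) and, farther along, from 100526426 to 100526831 (406 bp). The last peaks of the span ran from 100531613 to 100531852 (240 bp) and then from 100537022 to 100537405 (384 bp). Inside the span no gap between neighbouring peaks was longer than 13.1 kb. Beyond the last peak the list had none for 52.9 kb. The last 7.60 kb of the span lay in that gap.

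The span of MTTP held the highest density of the 4 spans, although their counting intervals overlap. Its 8 peaks in 60 kb came to 133 peaks per Mb (exact 95% Poisson interval 57.6 to 263). The span with its extensions held 90.0 per Mb (41.2 to 171), and the 1 Mb around it (500 kb on each side of the extended span) held 63 peaks, or 63.0 per Mb (48.4 to 80.6). The ratio to the surroundings was 2.12 for the span alone (95% exact conditional interval 0.876 to 4.43) and 1.43 with the extensions (0.625 to 2.89). Both intervals include 1. As background, 97.7% of the 26898 autosomal windows of 100 kb held at least 1 peak, and 20.2% held at least 9. Of the 44851 windows of 60 kb, 3078 (6.86%) held at least 8, as the MTTP span did.

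APOB, the structural protein of very low and low density lipoprotein, had its widest peak just outside the end where transcription begins. APOB is transcribed towards lower coordinates, so its start is at the high end of the span. The nearest peak to that end ran from 21268222 to 21269114, 1.22 kb outside the span. At 893 bp it was the widest of the 30 members, and 98.5% of all peaks in the list were narrower. The next peak above it, from 21285711 to 21285960 (250 bp), was 16.6 kb away.

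Inside the APOB span, the peaks kept to the part away from the gene start. A close pair lay 0.743 kb apart, from 21233180 to 21233352 (173 bp) and then from 21234096 to 21234513 (418 bp). The third lay from 21240671 to 21240980 (310 bp). From there to the 893 bp peak the list was empty for 27.2 kb, and 26.0 kb of that, 60.5% of the span, lay inside the span on the side of the gene start. Of all autosomal gaps, 19.1% were at least as long. Below the span, in the direction of the gene's end, 3 narrow to medium peaks lay from 21209696 to 21209872 (177 bp), from 21213133 to 21213463 (331 bp) and, last, from 21217269 to 21217433 (165 bp). The 165 bp peak was the narrowest member, and 6.17% of all peaks were narrower.

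The density at APOB was 96.4 peaks per Mb with the extensions (41.6 to 190), against 65.0 per Mb in the 1 Mb around it (50.2 to 82.8). The ratio was 1.48 (0.614 to 3.10). The span alone, with 3 peaks in 43 kb, had 69.8 per Mb (14.4 to 204) and a ratio of 1.07 (0.216 to 3.28), and 43.5% of windows of 43 kb held at least 3. Of the 32415 autosomal windows of 83 kb, 96.4% held at least 1 peak and 17.6% at least 8. Chromosome 2 averaged 76.4 peaks per Mb, more than the 65.0 per Mb around APOB, and 31.3% of its windows of 83 kb held at least 8.

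In the APOE cluster the peaks gathered at the APOE end and were absent from the APOC2 end. APOE is transcribed from the low end of the span, which is given to the nearest 1 kb only. The nearest peak, from 45409425 to 45409640 (216 bp), began 0.425 kb inside that end, so its side of the gene start is not settled. It was followed by peaks from 45412555 to 45412952 (398 bp), from 45416352 to 45417020 (669 bp) and then from 45423032 to 45423444 (413 bp). The gaps between these 4 peaks were 2.91, 3.40 and 6.01 kb. The 669 bp peak was the widest of the cluster, and 95.6% of all peaks in the list were narrower.

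From the last of these peaks the list was empty for 39.3 kb, of which 29.6 kb (67.2% of the span) lay inside the span and reached its APOC2 end. In the gene table, APOC4 and APOC2 are the last genes of the cluster in that direction. The peak that ended the gap, from 45462745 to 45463032 (288 bp), lay 9.75 kb above the span. Gaps at least as long as this one, which was picked for its length, were 10.5% of all autosomal gaps. Below the span, towards TOMM40 and NECTIN2, which precede APOE in the gene table and encode a mitochondrial import channel protein and a cell adhesion protein, 3 peaks lay from 45390965 to 45391212 (248 bp), from 45400121 to 45400390 (270 bp) and then from 45404624 to 45404942 (319 bp). Together with the 4 inside, they gave 7 peaks, the outermost 17.8 kb below and 14.0 kb above the APOE end of the span.

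The APOE cluster with its extensions had 95.2 peaks per Mb (41.1 to 188), against 62.0 per Mb in the 1 Mb around it (47.5 to 79.5), a ratio of 1.54 (0.635 to 3.22). Without the extensions, 4 peaks in 44 kb gave 90.9 per Mb (24.8 to 233) and a ratio of 1.47 (0.387 to 3.95), and 27.2% of windows of 44 kb held at least 4. At least 1 peak was present in 96.5% of the 32030 autosomal windows of 84 kb, and at least 8 in 18.2%. Chromosome 19 as a whole had 42.8 peaks per Mb (41.1 to 44.6), and 5.12% of its 664 windows of that length held at least 8. The density in the surroundings of the cluster, relative to chromosome 19, had a ratio of 1.45 (1.11 to 1.86, with peaks treated as independent). The same ratio to the own chromosome was 1.41 around the APOA cluster, 1.17 around MTTP and 0.851 around APOB.

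The APOA cluster had the fewest peaks, and none at its APOA1 end. The only peak inside the span ran from 116672981 to 116673214 (234 bp), 13.0 kb from the low end, where APOA5 lies. From it the list was empty for 60.7 kb, the longest gap met at the 4 loci and picked for that length. Of all autosomal gaps, 4.02% were at least as long. This gap took in the upper 35.8 kb of the span (73.0% of it), the APOA1 end included, and the next peak lay 24.9 kb above the span. In the gene order APOA4, APOC3 and APOA1 follow APOA5 towards that end. Where in the span APOA4 and APOC3 lie was not analysed, so which of them falls in the gap is not stated.

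The other 4 members of the APOA cluster lay below the span, on the side of ZPR1, the gene next to APOA5 in the gene table, which encodes a zinc finger protein. The nearest to APOA5, from 116659276 to 116659527 (252 bp), ended 0.473 kb below the span, less than the 1 kb to which the span ends are given. Of the remaining 3, a pair 0.125 kb apart ran from 116650928 to 116651233 (306 bp) and then from 116651359 to 116651761 (403 bp). The third ran from 116652803 to 116653240 (438 bp), the widest of this cluster.

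With its extensions the APOA cluster had 56.2 peaks per Mb (18.2 to 131), against 73.0 per Mb around it (57.2 to 91.8), a ratio of 0.770 (0.243 to 1.88). The span alone had 20.4 per Mb (0.517 to 114) and a ratio of 0.280 (0.00698 to 1.61). Both intervals include 1. Of the 30229 autosomal windows of 89 kb, 97.0% held at least 1 peak and 53.0% at least 5, and of the 54927 windows of 49 kb, 28.8% held 1 peak or none. The low ratio also rests on the surroundings: the 500 kb above the cluster, on the side of SIK3, held 46 peaks, and the 500 kb below held 27. Set against chromosome 11 as a whole (51.7 per Mb), the ratio was 1.09, and with 1 Mb on each side it was also 1.09, so the direction depended on what was taken as the surroundings.

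**Figure D2:**
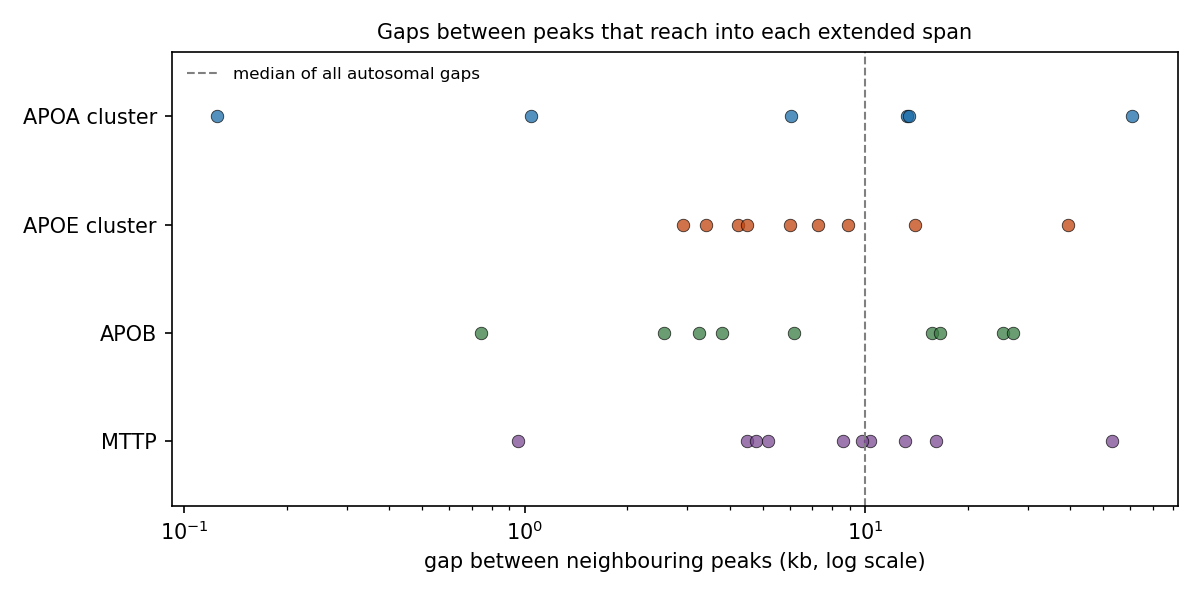
Gaps between neighbouring peaks that reach into each extended span, in kb on a log scale, one point per gap; the dashed line is the median of all autosomal gaps, 9.97 kb. The longest gap at each locus was 60.7 kb for the APOA cluster, 39.3 kb for the APOE cluster, 27.2 kb for APOB and 52.9 kb for MTTP. In the same order, 4.02%, 10.5%, 19.1% and 5.61% of all autosomal gaps were at least as long. The 4 gaps were picked for their length, so they are not shown to be long for this list.

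Taken over all 4 loci, the extended spans held 30 peaks in 356 kb, or 84.3 per Mb (56.9 to 120), against 263 peaks in the 4 Mb around them, or 65.8 per Mb (58.0 to 74.2). The ratio was 1.28 (0.848 to 1.87), an interval that includes 1, so a higher density at these genes was not shown at this number of peaks. The autosomes together had 58.4 peaks per Mb. Peaks covered 2.82% of the extended spans and 2.32% of the surroundings. In each of the APOE, APOB and MTTP loci the covered share was higher than around it (3.36% against 2.27%, 3.27% against 2.28% and 2.88% against 2.02%), and in the APOA cluster it was lower (1.83% against 2.70%). Within each locus and its surroundings peaks share the same library pair, so the 4 loci are not replicates.

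**Figure D3:**
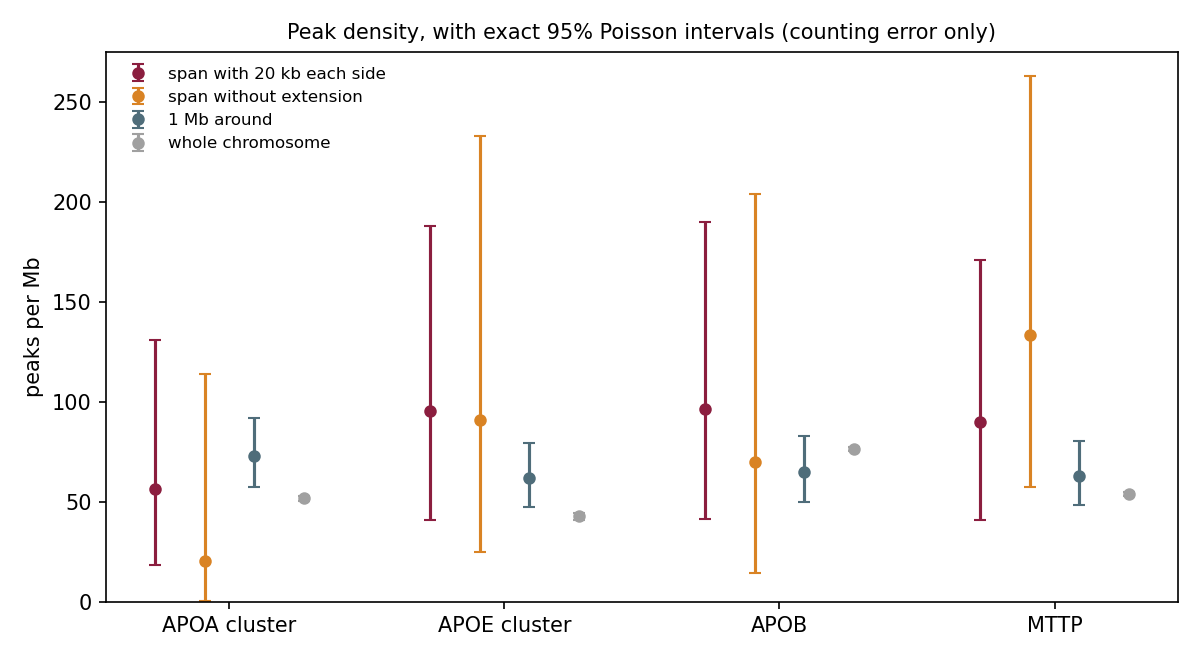
Peaks per Mb in the span with 20 kb on each side, in the span alone, in the 1 Mb around it and on the whole chromosome, for each locus. Points are counts divided by length and bars are exact 95% Poisson intervals for counting error only; the intervals of each extended span overlap those of its surroundings.

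Windows next to each locus varied widely in their counts. Around MTTP, the 10 windows of 100 kb next to it held 1 to 12 peaks (median 6), and 1 of them held more than the 9 at MTTP. Around APOB, the 12 windows of 83 kb held 1 to 10 peaks (median 6), and 2 held more than 8. Around the APOE cluster, the 10 windows of 84 kb held 1 to 9 (median 5), and 2 held more than 8. Around the APOA cluster, the 10 windows of 89 kb held 3 to 14 (median 6), and 5 held more than 5. Thus MTTP, APOB and the APOE cluster lay above the median of their own neighbours and below the fullest of them, and the APOA cluster lay below the median.

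**Figure D4:**
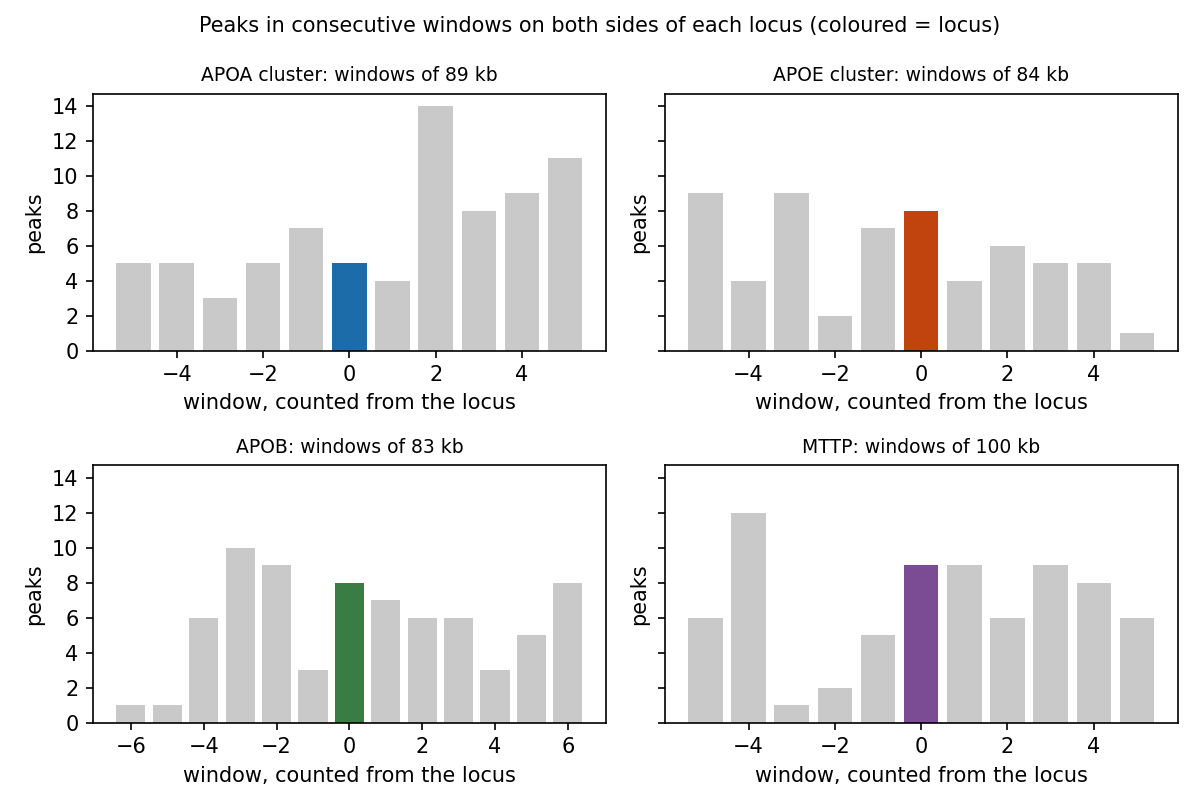
Number of peaks in consecutive windows of the same length on both sides of each locus. The x axis counts windows from the locus (0, coloured), negative numbers lie at lower coordinates; the fullest neighbour held 14 peaks near the APOA cluster, 9 near the APOE cluster, 10 near APOB and 12 near MTTP.

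**Figure D5:**
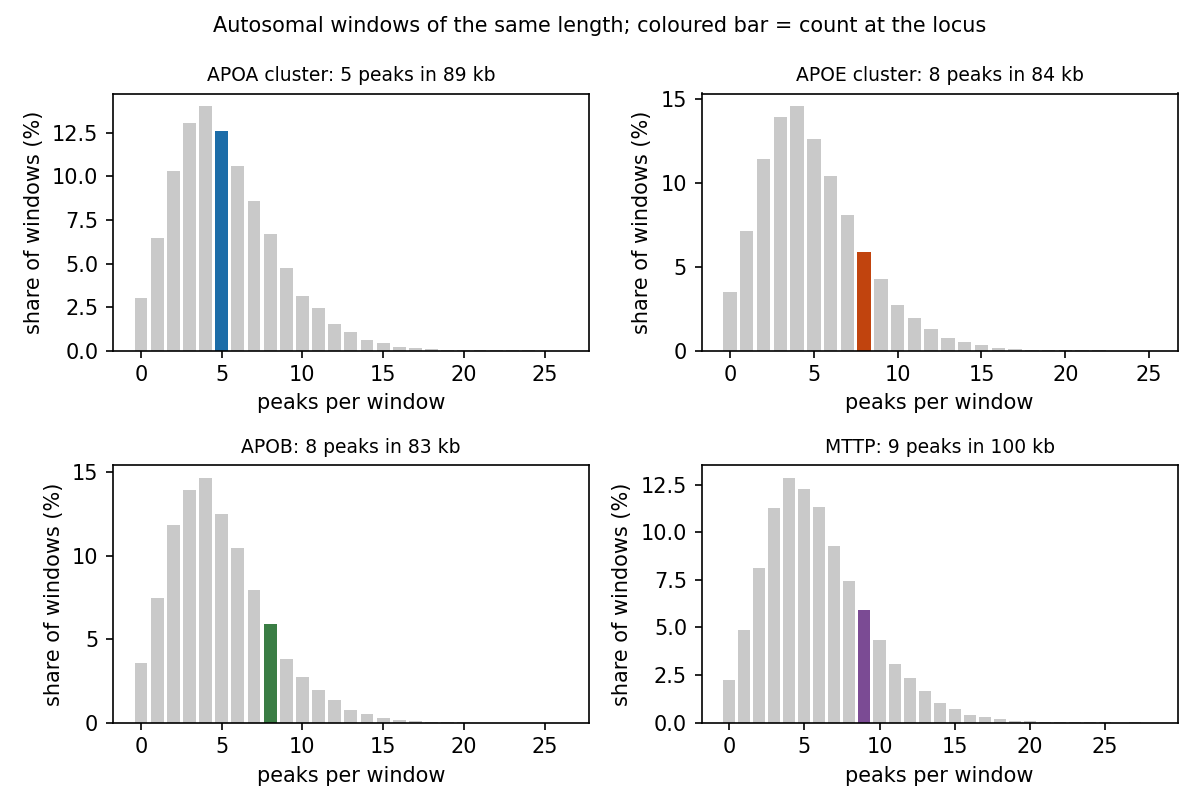
Share of all autosomal windows (y axis, percent) by number of peaks (x axis), for windows as long as each extended span. The coloured bar is the count at the locus; at least as many peaks were found in 53.0% of windows for the APOA cluster, 18.2% for the APOE cluster, 17.6% for APOB and 20.2% for MTTP.

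Member peaks were of ordinary width. Their median was 308 bp, with a range of 165 to 893 bp, against a median of 320 bp for the 263 surrounding peaks and 316 bp for the list. The medians were 306 bp in the APOA cluster, 303.5 bp in the APOE cluster, 280 bp at APOB and 312 bp at MTTP. The MTTP peaks varied least, between 229 and 406 bp, and the APOB peaks most, between 165 and 893 bp. In all, 3 members were 420 bp or wider (10.0%), against 17.8% of the list: the 893 bp peak beside the APOB span, the 669 bp peak of the APOE cluster and the 438 bp peak below APOA5. Members of 398, 403, 405, 406, 413 and 418 bp fell just under that step and above the list's upper quartile of 396 bp. The lower share of wide members therefore depends on the step, and a lack of wide peaks was not shown. Another peak lay within 5 kb of 19 members (63.3%), against 58.9% of the surrounding peaks and 52.2% of the list.

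Some members were written more than once among the 180505 deposited rows. This was so for 8 of 30 (26.7%), against 24.3% of the surrounding peaks and 10.7% of the list. At MTTP, 4 of 9 peaks were listed 2 times each: the first inside the span and the last 3. In the APOA cluster the close pair below the span was listed 2 times each. In the APOE cluster the peaks at 45390965 and 45404624, both below APOE, were listed 3 and 2 times. No APOB peak was repeated, although 24.6% of the 65 peaks around it were. Among the surrounding peaks of the other loci, 20.6% were repeated around MTTP, 15.1% around the APOA cluster and 38.7% around the APOE cluster. The meaning of a repeated row is not given in the sources used here.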

How the data were processed

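ChIP libraries from sonicated, crosslinked HepG2 chromatin were amplified for 13 PCR cycles and read on semiconductor sequencers, per the labels' protocols. BWA and the build hg19 are named in the submitters' processing notes, without versions. Per the file headers, the authors trimmed reads, removed duplicate reads and called peaks with MACS (p-value cutoff 1e-05, enrichment factor 32, read and fragment length 128 bp, effective genome size 2700000000 bp, local biases detected). Duplicate removal limits how many reads can stack, and read depth and the success of each ChIP, both unknown, bear on which peaks are called. The deposited values are 3 columns: chromosome, start and end of each peak, with no score.

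Identical rows were counted as 1 peak, positions were written from 1, and no distinct peak overlapped another. The spans came with the definition of the loci, and the members were chosen with earlier results of these data known. Genes inside a cluster were not placed, since the gene table used here (GRCh38.p14) is of another build and served for gene order only. All member peaks may be named, as may the peak nearest to each span end, the widest member of each locus and the longest peak-free stretch of each span. Autosomal windows were tiled end to end, leaving out those touching a peak-free gap over 1 Mb. Tiling, overlap counts and intervals of ratios were tested on simulated data. The simulated counts for the ratios were independent, so that test does not cover peaks that cluster. The Poisson intervals were not tested in this way. Poisson intervals are exact; intervals of ratios are exact and conditional on the total; they treat peaks as independent. Alternatives varied the extension, the surroundings, what counts as a peak, the tiling and the loci included. Computations used Python 3.11.15, numpy 2.4.6, pandas 2.3.3, scipy 1.17.1 and matplotlib 3.10.9.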

Additional observations from a re-analysis of the deposited data

How the results depend on the processing

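No alternative was added after the values were seen. The density of the 4 loci relative to their surroundings was above 1 in all 13 alternatives run on the pooled value, between 1.09 (the wider peaks alone, from the list's median width up) and 1.48 (without the APOA cluster), each within the counting interval of the value given. That interval includes 1. The alternatives reuse the same loci and overlapping sets of peaks, so their shared direction does not show a higher density. For the APOA cluster alone the direction turned, to 1.05 with a 50 kb extension, 1.09 with 1 Mb on each side and 1.09 against the whole chromosome. The count of 30 peaks became 16 with no extension, 51 with 50 kb and 13 for those wider peaks, by construction. The covered share became 3.26% with 10 kb, 2.98% with 50 kb and 3.34% with peaks within 1 kb merged, which counts the bases between them. The share of windows with at least as many peaks became, on the own chromosome, 43.3% for the APOA cluster, 5.12% for the APOE cluster, 31.3% for APOB and 13.9% for MTTP; without empty windows it was 54.7%, 18.8% and 18.3% for the first 3. Median width and rows per peak stayed within their interval or within 1.5-fold. The authors' score could not be used as a stricter threshold, since the list holds none, and with 1 library per group no replicate could be left out. No paired analysis was possible because no group has a second library. Unknown depth limits every count, and 5 to 9 peaks per locus give wide intervals.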
